A study of Schizosaccharomyces pombe with 4 samples.

Results

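The genes of fission yeast (Schizosaccharomyces pombe) were sorted by how much of the RNA helicase Upf1 their chromatin held relative to other genes with the same loading of transcribing RNA polymerase II (Pol II). All 4888 listed genes were ranked by their ratio for Pol II phosphorylated on Ser5 and cut into 50 bins of 97 or 98 genes. For each of the 2 cultures, the median log2 Upf1 ratio of the bin was subtracted from that of the gene, and the remainder is called the Upf1 difference here. Both differences were positive at 1689 genes and both negative at 1688 genes, so 3377 of 4888 genes had the same sign in both cultures. The other 1511 genes had opposite signs.

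Upf1 carried an HA tag at its own locus and was recovered by chromatin immunoprecipitation (ChIP) with an antibody against the tag, and the DNA was hybridised to tiling arrays. An asynchronous, untreated culture and a culture synchronised in S phase gave 1 immunoprecipitation (IP) array each. The S-phase culture was arrested through the cdc25-22 mutation by 3.5 h at 37 °C, released to 25 °C and fixed after a further 60 min. The study lists a strain with HA-tagged Upf1 that carries cdc25-22, ade6-704, leu1-32 and ura4-D18, and another without cdc25-22 in which the Pol II subunit Rpb3 is Flag-tagged. Which strain gave the asynchronous array is not stated. Both cultures were divided by the mean of the same 2 input arrays, so an error of the input at a gene enters both of its differences with the same sign. Both differences also use the same Pol II bin, so an error of the Pol II ratio of a gene can shift both the same way. The S-phase column also had a lower median ratio than the asynchronous one, 0.195 against 0.774, and every log2 ratio given here is relative to the median gene of its column. The Ser5 Pol II ratios and the RNA levels are the authors' means from published datasets on other cultures. There is 1 value per culture and no replicate, so no difference was tested and no p-value is given.

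Upf1 is an ATP-dependent RNA helicase, best known as the core factor of nonsense-mediated decay, the cytoplasmic pathway that destroys mRNAs with a premature stop codon. It is also found in the nucleus and on chromatin. The largest subunit of Pol II has a tail of repeated heptapeptides. Their Ser5 is phosphorylated early in transcription, so Ser5 Pol II marks genes at which polymerase has initiated.

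Subtraction of the bin medians takes out the dependence on Pol II across bins by construction. The Spearman correlation across all 4888 genes between the Upf1 difference and the Pol II ratio was therefore near 0. It was −4.7e-05 in the asynchronous and −0.0013 in the S-phase culture. A trend inside a bin is not removed by the rule. Inside the lowest bin, where Pol II ratios ran from −3.45 to −1.26, the correlation was −0.033 and −0.076 over 98 genes. Inside the highest bin, where Pol II ratios ran from 1.61 to 9.04 on the log2 scale, the correlation was −0.075 and −0.057 over 97 genes. The upper bound of that range is the fluoride exporter gene fex1, which has a near-identical copy, fex2. The standard deviation (SD) of the difference over genes was 0.28 for the asynchronous and 0.38 for the S-phase array. It was largest in the 5 bins with the lowest Pol II (0.38 and 0.47) and, for S phase, in the 5 with the highest (0.31 and 0.50).

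At least 1.5-fold above the bin median in both cultures were 42 genes, 0.859% of all genes, and at least 1.5-fold below were 52 genes, 1.06%. In the asynchronous culture alone 2.68% of genes lay 1.5-fold above and 2.05% below, and in S phase 4.66% and 5.59%. The gene just inside the upper threshold was fba1, with differences of 0.59 and 1.09 (asynchronous value first, here and below), and just outside it lay SPAPB1A10.13 with 0.75 and 0.58. Just inside the lower threshold was spt4 (−0.59 and −0.75), and just outside it SPBC32H8.01c (−0.58 and −0.61). Threshold genes lay at both ends of transcription. Of the 42 high genes 13 were in the 5 lowest and 8 in the 5 highest bins of Pol II, and of the 52 low genes 8 and 12.

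**Figure D1:**
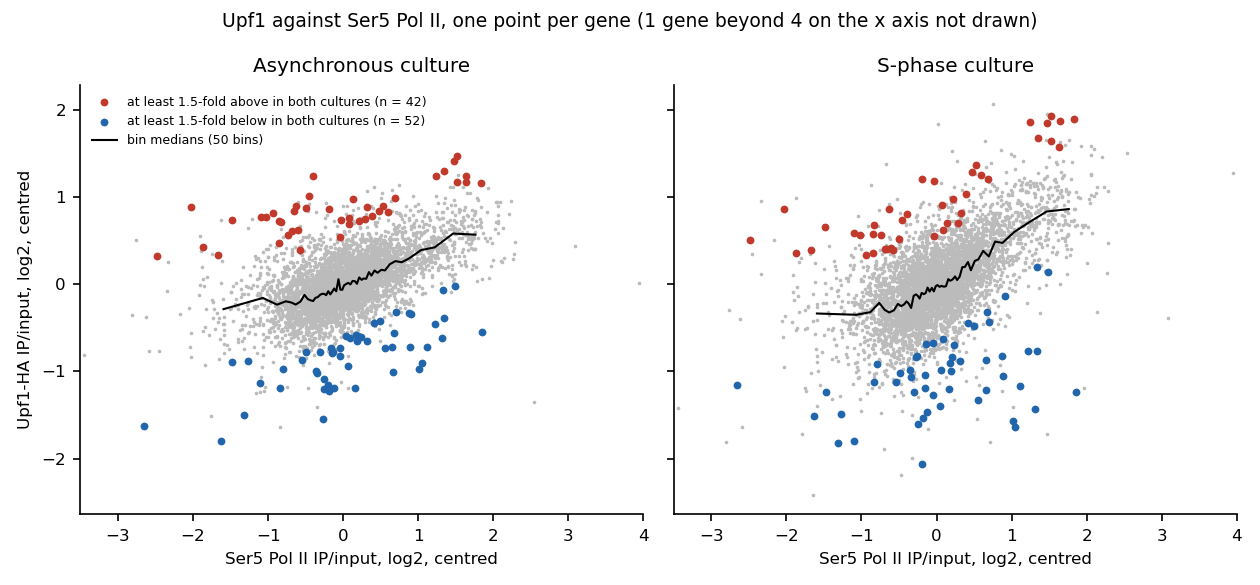
Log2 ratio of Upf1-HA IP over input against that of Ser5 Pol II, both centred on the median gene, for the asynchronous (left) and the S-phase culture (right), with the medians of the 50 bins as a black line. The 42 genes at least 1.5-fold above the line in both cultures (red) and the 52 at least 1.5-fold below it (blue) were spread over the whole range of Pol II, and fex1 lies beyond the axis.

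Of the gene features examined, base composition had the largest Spearman correlation with the Upf1 difference, and short stretches of 4 genes are shown to make this visible. They belong to 2 glycolysis genes with more Upf1 than their Pol II loading predicts (eno101, enolase, and fba1, fructose-bisphosphate aldolase) and 2 genes with less (cdc27, a subunit of DNA polymerase delta, and mnh1, the orthologue of Mago nashi). Each is the first window of 60 bases in the gene whose GC content is nearest to that of the whole gene, on the coding strand, from RefSeq assembly ASM294v3, with G and C in capitals. The positions are chrII:2201238-2201297 (plus strand), chrII:1688402-1688461 (plus), chrII:1061759-1061818 (minus) and chrII:4001590-4001649 (minus).
eno101: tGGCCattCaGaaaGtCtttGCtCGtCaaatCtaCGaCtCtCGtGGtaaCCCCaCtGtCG
fba1: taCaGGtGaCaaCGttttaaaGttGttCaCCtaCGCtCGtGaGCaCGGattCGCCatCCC
cdc27: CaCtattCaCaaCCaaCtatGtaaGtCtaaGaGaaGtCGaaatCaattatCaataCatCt
mnh1: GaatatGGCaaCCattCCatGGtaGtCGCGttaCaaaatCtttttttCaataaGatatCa
The GC content was 50.6% over eno101, 49.3% over fba1, 32.0% over cdc27 and 33.4% over mnh1, against a median of 36.8% over all matched genes. The first pair consists of genes without introns, while cdc27 has 6 exons and mnh1 has 7.

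Over the whole table the same contrast held. GC content had a median of 37.8% (quartiles 36.2 and 39.5) in the 1675 matched genes above in both cultures and of 35.9% (34.4 and 37.3) in the 1670 below. It was 39.0% in the high genes and 33.4% in the low ones. When genes were cut into 4 classes of GC content, the share above in both cultures increased from 20.2% in the class of lowest GC through 26.5% and 37.1% to 54.5% in that of highest GC. The share below decreased from 52.4% through 41.0% and 28.2% to 16.3%. Of the 52 low genes 40 lay in the class of lowest GC, and of the 42 high genes 21 lay in that of highest GC. The Spearman correlation between GC content and the Upf1 difference was 0.37 and 0.30 over 4844 genes. With the GC content of the coding sequence alone it was 0.40 and 0.40 over 4749 genes, and in intronless protein-coding genes 0.39 and 0.42 over 2390 genes. Genes are not independent replicates, and neighbouring genes share base composition. The Upf1 and Pol II ratios each divide one array signal by another, and any part that hybridisation has in the dependence on GC was not tested.

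Introns went with lower Upf1. Of 2390 protein-coding genes with 1 exon, 39.9% were above and 28.4% below in both cultures, while 28.1% of the 668 genes with 4 or more exons were above and 42.5% below. The median coding GC of these classes was 40.2% and 38.7%. Of the 35 protein-coding genes among the high genes, 34 had no intron, against 18 of 37 among the low ones and 50.5% of all protein-coding genes. The low genes were also short, with a median length of 835 bp against 1514 bp in the high genes and 1803.5 bp in all matched genes. Over all genes length itself had a correlation of only 0.080 and 0.091 with the difference.

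**Figure D2:**
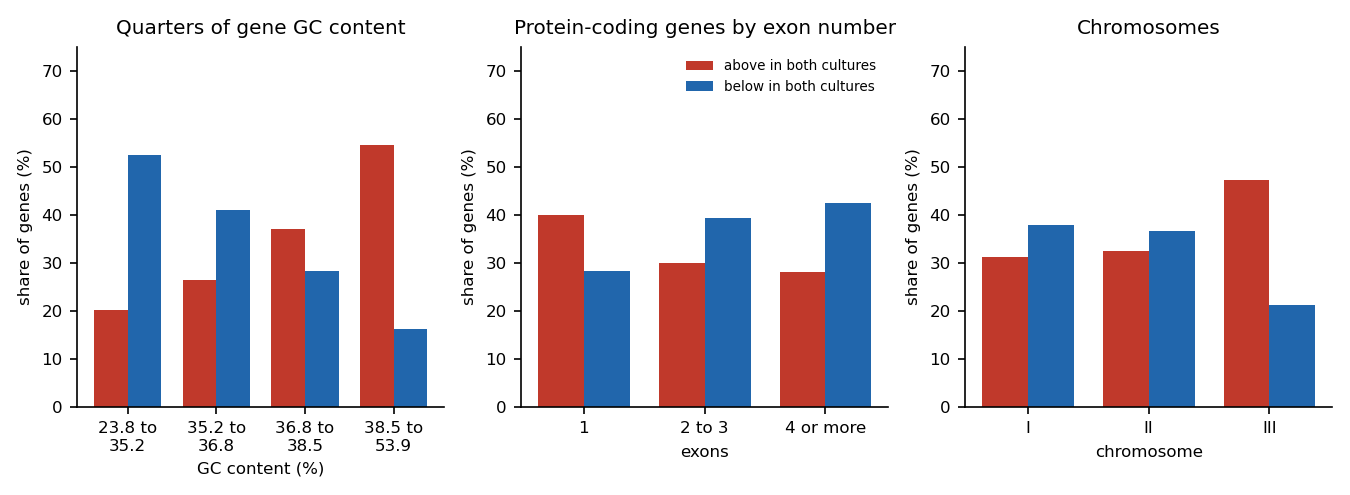
Share of genes (percent) above (red) and below (blue) their Pol II bin median in both cultures, by class of gene GC content, by number of exons of protein-coding genes, and by chromosome. The share above increased from 20.2% to 54.5% over the classes of GC content, decreased from 39.9% to 28.1% over the exon classes, and was 47.3% on chromosome III.

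The genes of chromosome III were more often above their bin than those of the other chromosomes. Of its 874 matched genes 47.3% were above and 21.3% below in both cultures. On chromosome I (2190 genes) these shares were 31.2% and 37.9%, and on chromosome II (1780 genes) 32.5% and 36.7%. Chromosome III held 13 high and 3 low genes, chromosome I 15 and 26, and chromosome II 10 and 20. The shift was small per gene, with a median difference of 0.05 and 0.12 on chromosome III, −0.01 and −0.03 on chromosome I and −0.01 and −0.01 on chromosome II. Median GC content was 37.0%, 36.7% and 36.8% on chromosomes III, I and II. In each class of GC content the share above was higher on chromosome III, from 33.0% in the lowest class to 66.0% in the highest, against 17.1% to 50.6% on chromosome I and 18.9% to 52.4% on chromosome II. When the genes of a chromosome were cut into 5 equal groups by position, the share above on chromosome III was 55.4% in the first group, 37.7% in the middle and 55.7% in the last. Along chromosome II it ran from 41.6% in the first group to 23.9% in the fourth. The arrays of both cultures share the inputs, so DNA content of the input and Upf1 cannot be told apart at this scale.

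Neighbouring genes tended to lie on the same side. Over 4841 pairs of adjacent listed genes, the Spearman correlation between the differences of the neighbours was 0.28 and 0.20. A neighbour of a gene above in both cultures was itself above in 44.2% and below in 25.6% of cases. Tandem, convergent and divergent pairs had a correlation of 0.27, 0.31 and 0.29 in the asynchronous culture. Pairs at least 500 bp apart had 0.22 and 0.17 over 1632 pairs, and overlapping pairs 0.35 and 0.21 over 1057 pairs. ChIP DNA carries no strand information, so the signals of overlapping genes cannot be separated. A second protein-coding gene overlapped 38.9% of the genes above, 48.4% of those below and 43.6% of all matched genes.

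RNA level, in contrast, hardly distinguished the genes above from those below. The Spearman correlation between the Upf1 difference and the RNA level relative to the median of the Pol II bin was 0.034 and 0.055 over 4888 genes. RNA was above the bin median in 50.6% of genes with more and 47.5% of genes with less Upf1. The low genes were an exception. RNA was below the bin median in 40 of 52 of them, with a median of −0.78 relative to the bin on the natural log scale of FPKM + 1, while the 42 high genes were split 22 above to 20 below. Among the low genes in the 10 bins of highest Pol II, 14 of 18 had RNA more than 1 natural log unit under the bin median, against 18.4% of all 970 genes of these bins. The makeup of these sets differed, with 6 of the 18 not matched to a protein-coding gene, against 32 of the 970. Over the 132 listed non-coding RNA genes, median RNA relative to the bin was −0.92, and 14 of them were low genes. Any part of this makeup in the low RNA was not tested. The Pol II and RNA columns come from other cultures than the Upf1 arrays.

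**Figure D3:**
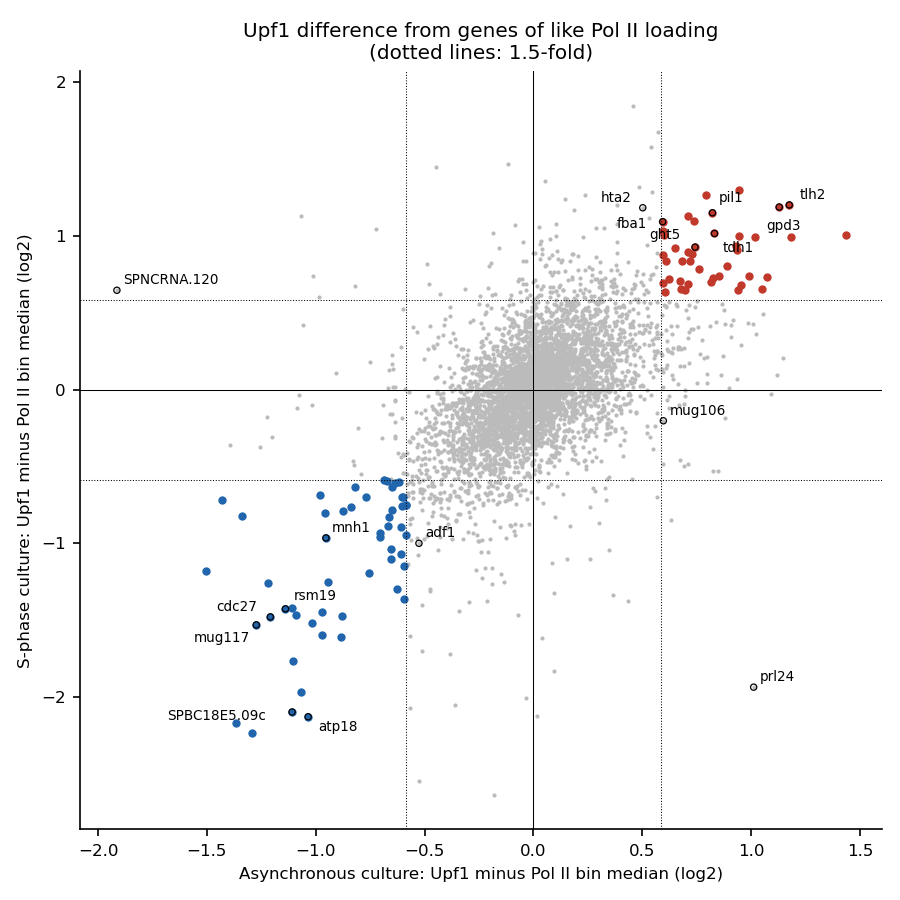
Upf1 difference in the asynchronous (x axis) against the S-phase culture (y axis), both in log2 units relative to the median of the Pol II bin, with one point per gene, dotted lines at 1.5-fold and a few genes named. The 42 high genes (red) and the 52 low genes (blue) lie beyond the dotted lines in both cultures, and both axes use the same inputs and the same Pol II bins.

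Genes of central carbon metabolism lay above their bins. All 12 listed glycolysis genes were above in both cultures, where 34.6% of all genes were, and 6 of them passed 1.5-fold in both. Their median differences were 0.56 and 0.75, at a median Pol II ratio of 1.5. Values were lower at the upper steps of the pathway. The hexokinase genes hxk1 (0.15 and 0.17) and hxk2 (0.06 and 0.22), the phosphoglucose isomerase gene pgi1 (0.19 and 0.33) and the phosphofructokinase gene pfk1 (0.02 and 0.34) all lay below the list median in both cultures. From aldolase on, values were higher than at these steps, although tpi1 too lay below the list median in both cultures. The aldolase gene fba1 had Upf1 ratios of 1.17 and 1.92, which gave differences of 0.59 and 1.09. The triose phosphate isomerase gene tpi1 had differences of 0.53 and 0.72, the phosphoglycerate kinase gene pgk1 0.67 and 0.71, the phosphoglycerate mutase gene gpm1 0.60 and 1.01, eno101 0.59 and 1.03, and the pyruvate kinase gene pyk1 0.47 and 0.77. These genes are rich in G and C. After a smooth trend on GC content had been removed from the Upf1 ratios, the list median was 0.10 and 0.30. Then eno101 lay at 0.02 and 0.32, fba1 at 0.11 and 0.49, gpm1 at 0.19 and 0.50, pgk1 at 0.26 and 0.19, and tpi1 at 0.36 and 0.49. The trend was fitted before binning, and GC content was higher at high Pol II. Its median was 38.6% over the 960 matched of the 970 genes with the highest Pol II, against 36.8% over all matched genes. Here and below, the removal can therefore also take out Upf1 signal that goes with Pol II, and lower GC-rich genes too far. How much was not tested.

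The glyceraldehyde-3-phosphate dehydrogenase genes, tdh1 and gpd3, had the highest differences of the list in the asynchronous culture. In S phase fba1 and eno101 lay above tdh1. At tdh1 the Upf1 ratios were 1.41 and 1.85 and the Pol II ratio 1.48, and the differences were 0.83 and 1.02. At gpd3 the Upf1 ratio was 0.90 and 0.86, the Pol II ratio only −0.63, and the differences were 1.13 and 1.19. With the GC trend removed, tdh1 lay at 0.43 and 0.50, and gpd3 at 0.50 and 0.33. RNA of gpd3 was 2.30 natural log units above its Pol II bin. The coding sequences are 93.2% identical over 1008 bases, and 376 of the 1916 windows of 25 bases in gpd3 (19.6%) occur in tdh1 too, so that probes of this length could bind both. Bases 735 to 824 of the coding sequences are shown because they hold few of the differing bases, which are in capitals (ASM294v3, plus strand, chrII:579465-579554 for gpd3 and chrII:2808371-2808460 for tdh1).
gpd3: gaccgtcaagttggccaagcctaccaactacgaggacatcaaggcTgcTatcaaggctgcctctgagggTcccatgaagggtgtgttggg
tdh1: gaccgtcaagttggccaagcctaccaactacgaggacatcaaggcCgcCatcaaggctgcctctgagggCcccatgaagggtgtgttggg
The 2 stretches differ at 3 of 90 bases. How much of the Upf1 signal at gpd3 came from tdh1 DNA was not tested.

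Genes of sugar uptake and of fermentation lay on the same side. The 4 listed genes of alcohol fermentation were all above in both cultures, among them the alcohol dehydrogenase gene adh1 (0.53 and 1.12) and the pyruvate decarboxylase gene pdc101 (0.24 and 0.52). Of 5 listed hexose transporter genes 4 were above and 0 below, and ght5, the high-affinity glucose transporter, was highest with differences of 0.74 and 0.93 at a Pol II ratio of 0.07. With the GC trend removed, 1 of the 4 fermentation genes was above and 2 were below in both cultures, with pdc101 at −0.17 and −0.01. The asynchronous median of the fermentation genes turned from 0.21 to −0.13, and their S-phase median fell from 0.68 to 0.29. The asynchronous median of the transporters moved from 0.28 to 0.24. In ght5 801 of 2040 windows of 25 bases (39.3%) are shared with ght8, which lay at 0.28 and 0.23.

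Most of the listed genes of the cell wall were above. Of 24 listed genes for synthesis and remodelling of cell wall glucan, 17 were above and 0 below in both cultures, with median differences of 0.19 and 0.25. This shift was also found with the GC trend removed (0.22 and 0.20). The glucanosyltransferase gene gas2 was highest, with differences of 0.88 and 0.43. The exo-glucanase gene exg1 had 0.38 and 0.96, and psu1 0.48 and 0.37. The glucan synthase subunits bgs1, bgs3 and bgs4 were close to their bins (0.21 and 0.05, 0.22 and 0.05, 0.05 and 0.27). Outside this list, of the genes chosen by the naming rule, pil1, which encodes the core protein of the eisosome, a furrow of the plasma membrane, had Upf1 ratios of 1.24 and 1.85 and differences of 0.82 and 1.15. Its GC content is 39.8%, and with the GC trend removed the differences were 0.89 and 1.21. The gene of the cell surface protein Knh2 had 0.72 and 0.84, mfs3, a transporter gene, 0.74 and 1.1, the cyclin gene pas1 0.60 and 0.87, and cfh2, a chitin synthase regulator, 0.74 and 0.54. Of 12 listed amino acid permease genes 9 were above and 1 below (medians 0.12 and 0.45), with SPCPB1C11.02 at 0.95 and 0.68 and per1 at 0.49 and 0.70. Of 24 genes of sterol and fatty acid synthesis 14 were above and 2 below (medians 0.14 and 0.11), and the highest were the sterol genes erg25 (0.35 and 0.42) and erg31 (0.69 and 0.27) and the desaturase gene ole1 (0.27 and 0.79). Of 9 flocculin-like glycoprotein genes 7 were above and 1 below, and their S-phase median turned from 0.22 to −0.014 with the GC trend removed.

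**Figure D4:**
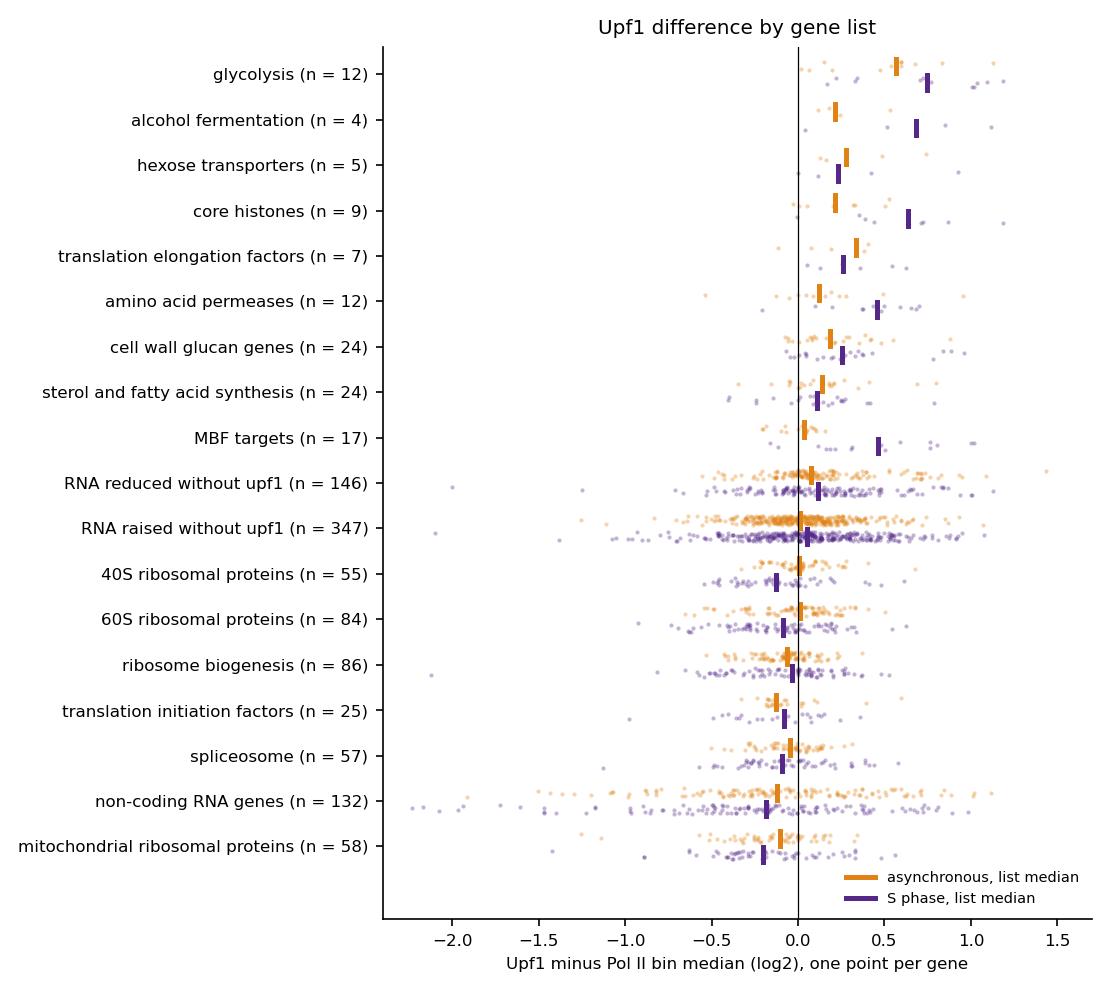
Upf1 difference (log2, relative to the median of the Pol II bin) of each member of 18 gene lists, with the list median as a bar, for the asynchronous (orange) and the S-phase culture (purple). The bars of glycolysis, fermentation, hexose transporters, histones and cell wall glucan genes lie to the right of 0 in both cultures, and those of mitochondrial ribosomal proteins and non-coding RNA genes to the left.

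Histone genes were above their bins, mostly through S phase. Of 9 core histone genes 7 were above and 0 below in both cultures, with medians of 0.21 and 0.64. The H2A gene hta2 had 0.50 and 1.18, its paralogue hta1 0.20 and 0.87, and the H3 genes hht3 and hht1 had 0.53 and 0.64, and 0.21 and 0.72. The H4 gene hhf2 had −0.03 and 0.35. Targets of MBF, the transcription factor complex of the G1-S transition, were above their bins mainly in S phase too. Of 17 listed targets 11 were above their bin in asynchronous cells, 15 in S-phase cells and 10 in both, with medians of 0.04 and 0.46. The ribonucleotide reductase gene cdc22 had 0.10 and 1.00, and the replication licensing gene cdc18 −0.19 and 1.02. The Pol II column has no counterpart from S-phase cells, so Upf1 relative to Pol II at that stage is not known at genes whose transcription changes with the cell cycle.

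The translation machinery was divided. Among genes of similarly high Pol II loading, 6 of the 7 listed elongation factor genes were above in both cultures (medians 0.34 and 0.26). Ribosomal protein genes were less often above than all genes. Of 55 genes of the 40S subunit 9 were above and 20 below (medians 0.01 and −0.13). Of 84 genes of the 60S subunit 21 were above and 32 below (0.01 and −0.09). Their median Pol II ratios were 1.47 and 1.49. The shares above were 16.4% and 25.0%, against 34.6% of all genes, while the shares below, 36.4% and 38.1%, were near the 34.5% of all genes. With the GC trend removed the medians of the 40S genes became −0.08 and −0.32 and those of the 60S genes −0.12 and −0.30. Then 34 and 53 of them were below. The elongation factors turned to −0.12 and −0.09. How much of these shifts came from Pol II-linked signal in the removed trend was not tested. Of the elongation factor genes, the EF2 genes eft201 (0.40 and 0.62) and eft202 (0.08 and 0.36) share 89.9% of the windows of 25 bases in eft201. The lowest 60S genes were rpl3002 (−0.65 and −0.63), rpl102 (−0.60 and −0.70) and rpl3703 (−0.54 and −0.56). Initiation factor genes were more often below, 13 of 25 against 4 above (medians −0.13 and −0.08), with the eIF3 subunit gene int6 at −0.24 and −0.98 and the eIF5 gene tif5, on the other side, at 0.39 and 0.36.

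Mitochondrial ribosomal protein genes were more often below. Of 58 listed genes 38 were below and 9 above in both cultures, against 34.5% below among all genes, with medians of −0.10 and −0.20. Their median GC content was 35.7%, and with the GC trend removed the medians were −0.04 and −0.05, with 25 genes below and 17 above. By the difference nearer to 0, the lowest was rsm19, whose Upf1 ratio was −1.19 and −1.46 and its difference −1.14 and −1.43. It overlaps loc1 on the chromosome. Next came mrp11 (−0.51 and −0.59) and mrpl25 (−0.43 and −0.89), and mrps8 lay on the other side (0.34 and 0.48). In the asynchronous culture alone, mrp17 (−1.26 and −0.37) was lower than these. Among the 50 listed genes of oxidative phosphorylation 23 were above and 15 below, yet the F0-ATPase subunit gene atp18 had −1.04 and −2.13 and the copper chaperone gene cox17 −0.52 and −2.54.

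Genes of ribosome biogenesis and of the spliceosome were more often below than above. Of 86 ribosome biogenesis genes 38 were below and 16 above (medians −0.06 and −0.03), with rrp16 at −0.53 and −0.57 and nop10, a protein of the H/ACA snoRNP, at −0.42 and −0.82. Of 57 spliceosome genes 30 were below and 16 above (−0.05 and −0.09). With the GC trend removed these counts were 32 below and 22 above for ribosome biogenesis, and 29 and 12 for the spliceosome. Of 20 genes of mRNA decay 9 were below and 4 above (−0.07 and −0.04), which became 6 below and 7 above with the GC trend removed. The exoribonuclease gene dis3 was above in both cultures (0.57 and 0.13). The deadenylase subunit genes pan2 and pan3 lay at −0.16 and −0.16, and −0.19 and −0.32. The gene of Upf1 itself, upf1, had differences of 0.06 and 0.17. Heat-shock and chaperone genes were below in 12 of 28 cases and above in 4 (−0.06 and −0.07).

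The lowest protein-coding genes came from different pathways. At cdc27 the Upf1 ratio was −1.49 and −1.81, at a Pol II ratio of −1.32, and the differences were −1.21 and −1.48. Its RNA was 1.20 natural log units above the bin. The meiotically upregulated gene mug117, which overlaps the gene cca2, had −1.27 and −1.53. The uncharacterized gene SPBC18E5.09c lay in the highest Pol II bin with a Pol II ratio of 1.86, yet its Upf1 ratio was −0.54 and −1.24, its differences were −1.11 and −2.10, and its RNA relative to the bin was −3.60 on the natural log scale. Among protein-coding genes of at least 1000 bp in the upper range of Pol II that overlap no other protein-coding gene, mnh1 was lowest with −0.95 and −0.96. In animals the product of its orthologue is part of the exon junction complex, which marks spliced mRNAs for Upf1-dependent decay. It was followed by the L-asparaginase gene SPBPB8B6.05c (−0.94 and −1.25), which has a near-identical copy, by rpl102, by pop4, a subunit gene of RNase P (−0.59 and −0.94), and by srp40 (−0.58 and −1.14). In the same group the G protein gene gpa2 had −0.58 and −0.67, the cyclophilin gene wis2 −0.56 and −0.67, the kinetochore gene mis13 −0.60 and −0.54, zuo1, a J-protein of the ribosome, −0.49 and −0.52, and gta1 −0.47 and −0.60. The GC content of srp40 (37.7%), mis13 (38.3%), wis2 (39.5%) and zuo1 (41.5%) was above the median over genes. With the GC trend removed, their differences were −0.51 and −1.03, −0.70 and −0.65, −0.66 and −0.82, and −0.62 and −0.77.

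Several of the highest genes lay below the median gene in Pol II loading. The RecQ-type helicase gene tlh2 near the right end of chromosome II had a Pol II ratio of −2.03 and Upf1 ratios of 0.89 and 0.87, which gave differences of 1.18 and 1.20. It shares 93.7% of its windows of 25 bases with tlh1, so its values may stand for several copies. Beside gpd3 (above), these included SPAPB24D3.07c (1.43 and 1.00), SPBC19C7.04c (1.18 and 0.99), SPBC1685.12c (1.02 and 0.99), SPAC17A2.10c (0.95 and 1.00), SPAPB15E9.02c (0.94 and 1.3, at a Pol II ratio of −0.19), SPCPB16A4.06c (0.93 and 0.94) and mug115 (0.93 and 0.91). The catalase gene ctt1 had 0.76 and 0.78 and the glycerol dehydrogenase gene gld1 0.99 and 0.74. Of the 60 outermost listed genes of the 6 chromosome ends, 36 were above and 7 below (medians 0.11 and 0.45). Pseudogenes were above in 13 and below in 3 of 20 cases, and their medians of 0.11 and 0.13 became −0.18 and −0.16 with the GC trend removed.

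Non-coding RNA genes were more often below. Of 132 listed, 63 were below and 31 above in both cultures, with medians of −0.12 and −0.18, and they supplied 14 of the 52 low genes and 4 of the 42 high ones. SPNCRNA.424 (−1.36 and −2.17) and SPNCRNA.240 (−1.30 and −2.23) lay in bin 47 of Pol II, and their RNA relative to that bin was −3.27 and −2.66 on the natural log scale. By the difference nearer to 0, the poly(A)-bearing RNA gene prl53 was the highest, with 0.89 and 0.81. In a single culture the list reached 1.12 (asynchronous) and 0.98 (S phase) at other genes. On the chromosome prl53 overlaps SPAC27E2.11c. Median GC content of the group was 33.2%, and it was known for 95 of the 132 genes. Over these 95, with the GC trend removed, the medians were 0.02 and −0.08, with 30 genes above and 32 below.

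The study's lists of genes whose RNA changed in cells without upf1 came from published expression microarrays, on other samples than these ChIP arrays. Of the 146 listed genes with reduced RNA 69 (47.3%) were above and 25 (17.1%) below in both cultures, against 34.6% and 34.5% of all genes. Their medians were 0.07 and 0.12. Past 1.5-fold were 9 above and 0 below, against 0.859% and 1.06% of all genes. The 9 include SPAPB24D3.07c, SPAC17A2.10c, SPCPB16A4.06c, ctt1 and knh2. At the other end, wis2 was the lowest of the list by the difference nearer to 0. With the GC trend removed 72 genes with reduced RNA were above and 29 below (0.09 and 0.11). Of the 347 listed genes with raised RNA 139 (40.1%) were above and 102 (29.4%) below (0.01 and 0.05), with 5 and 3 past 1.5-fold. With the GC trend removed, 111 of 346 were above and 114 below (−0.01 and 0.003), so the excess above was not found. By the same measure, the highest genes of the raised-RNA list were mug115, ght5, SPAC1039.06 (0.85 and 0.74) and SPCC63.13 (1.07 and 0.73). The lowest was SPBC18E5.09c.

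Of the genes examined singly in the study, met26, the methionine synthase gene, had 0.40 and 0.54, the actin gene act1 0.38 and 0.07, the proton ATPase gene pma1 0.10 and 0.14 and the exonuclease gene SPBC609.01 0.21 and 0.16. All were above in both cultures, although pma1 and SPBC609.01, and act1 in S phase, differed from their bins by less than the SD over genes. With the GC trend removed, SPBC609.01 was at −0.01 and −0.11. The carboxypeptidase gene cpy1, named beside them, had 0.71 and 0.47, and 0.37 and −0.02 with the GC trend removed. The overlapping genes gpm1 and mug106 differed. From the array profile of this locus, the study names gpm1 as a strongly transcribed gene with little or no Upf1. In the gene ratios used here, Upf1 at gpm1 was 1.16 and 1.87, and the differences were 0.60 and 1.01. The study describes mug106 as carrying Upf1 without Ser5 Pol II. Here its Pol II ratio was −0.46 and its differences were 0.60 and −0.20. Why the gene ratios and the profile differ at gpm1 was not tested.

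**Figure D5:**
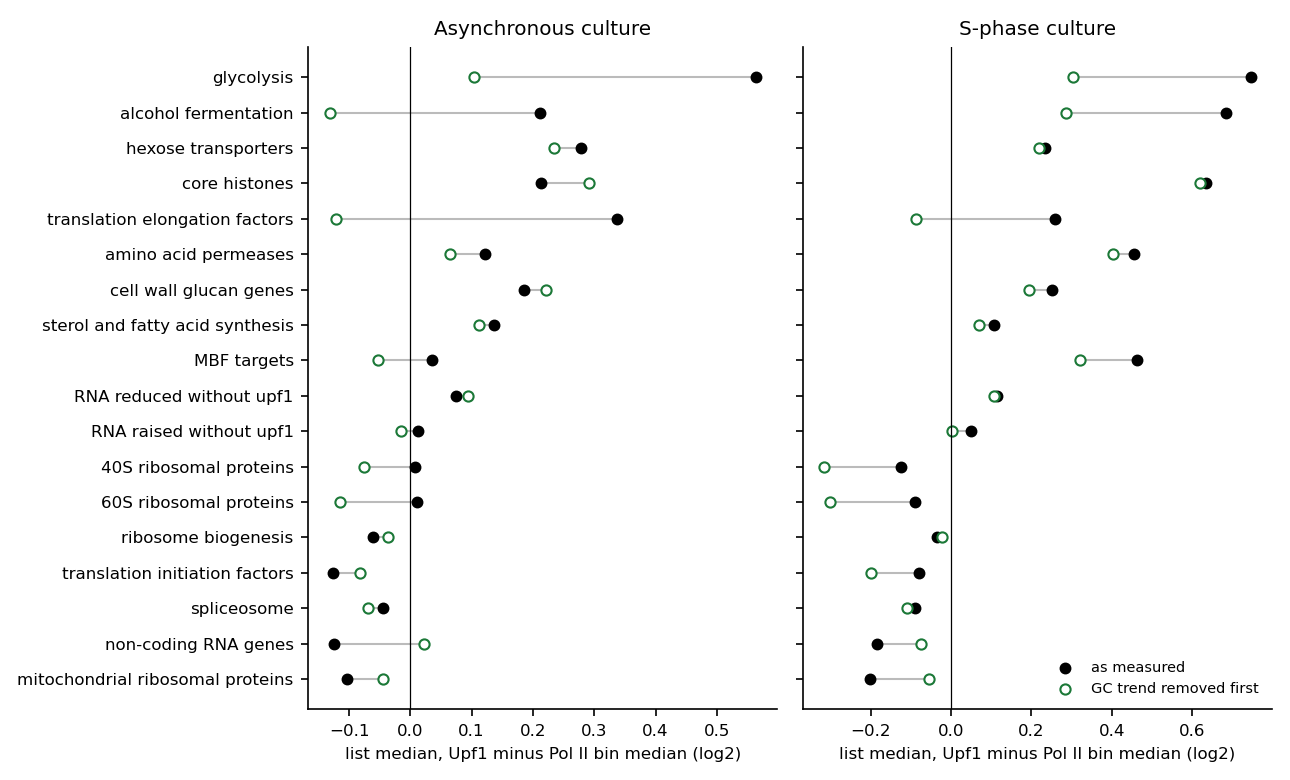
Median Upf1 difference (log2) of the same 18 gene lists, as measured (black) and after a smooth trend on gene GC content was removed from the Upf1 ratios before binning (green, open), for the asynchronous (left) and the S-phase culture (right). Cell wall glucan genes, hexose transporters, histones and the genes with reduced RNA without upf1 moved little, glycolysis moved from 0.56 and 0.75 to 0.10 and 0.30, and the elongation factors crossed 0.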

How the data were processed

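Per the methods, the authors reduced each Affymetrix tiling array to 1 signal per gene, averaged the 2 input arrays after scaling to a common median, and divided the IP signal by this mean. The deposited Upf1 and Pol II values are therefore linear ratios. Of 2 IP arrays per culture, the authors kept 1 on quality. The deposited RNA level is a natural log of mean FPKM + 1, and its base was inferred from the values. The number of arrays limits the precision. The table has 4 value columns, 2 of which are the authors' means over other datasets.

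Ratios were converted to log2 without a pseudocount and centred on the column median, binned by Pol II, and expressed relative to the bin median (Python 3.11.15, pandas 2.3.3, SciPy 1.17.1, statsmodels 0.14.6). The binning was tested on simulated data. Identifiers were matched to RefSeq ASM294v3 (4844 of 4888). The build behind the array signals is not given in the sources used here, so coordinates refer to RefSeq only. Near-identical copies were found with BLAST 2.17.0 (at least 90% identity over 50% of the gene).

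Named are the 10 highest and 10 lowest genes by the difference nearer to 0, the same among protein-coding genes of at least 1000 bp with Pol II above the median and no overlapping protein-coding gene, the genes the study examined singly and cpy1, up to 4 at each end of a list, and upf1. The other named genes (the remaining glycolysis genes, bgs1, bgs3, bgs4, hta1, eft202, pan2, gld1, fex1 and those at the 1.5-fold threshold) were chosen after their values were seen. Members and lists were chosen with earlier results of these data known, and some list members were dropped because the RefSeq product did not match the list. Alternatives were 20 and 100 bins, a lowess curve (fraction 0.1), bin means, scaling of S phase, removal of the GC trend (lowess fraction 0.3), bins of RNA level, gene filters and other thresholds.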

Additional observations from a re-analysis of the deposited data

Results flagged for a closer look

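Results are given here where the asynchronous and the S-phase difference had opposite signs and either concern a gene examined singly in the study or a gene list, or were at least 1.5-fold on both sides. None of these differences between cultures was tested, since each culture had 1 array.

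Amino acid biosynthesis genes (47) had medians of −0.0015 (asynchronous) and 0.28 (S phase), a step of 0.28. At mug106 S phase was lower by a change of −0.80, from 0.60 to −0.20, and at ada2 by −0.29, from 0.01 to −0.28. The largest steps lay in non-coding RNA genes and near the ends of chromosome III. The value of prl24 changed by −2.95 from 1.01 to −1.93, and that of SPNCRNA.359 by −1.48 from 0.63 to −0.85. Higher in S phase were SPNCRNA.120 by 2.56 (from −1.91 to 0.65), SPNCRNA.290 by 1.58 (from −0.98 to 0.60) and prl62 by 1.49 (from −0.82 to 0.67). Among the outermost genes of chromosome III the steps were 2.20 at SPCP20C8.03 (−1.07 to 1.13), 1.75 at SPCP20C8.02c (−1.01 to 0.74) and 1.77 at SPCC569.02c (−0.72 to 1.04). SPCP20C8.02c and SPCC569.02c are near-identical copies of each other, and 36.9% and 35.3% of their windows of 25 bases are repeated in the genome. In SPCP20C8.03 this share is 36.1%. These steps may therefore not be separate signals.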

How the results depend on the processing

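No paired analysis was possible because each culture had 1 IP array and no test was made. The 42 high and 52 low genes became 43 and 53 with 20 bins (40 and 50 of the same genes), 43 and 55 with 100 bins, and 42 and 48 with a lowess curve. With the GC trend removed they were 47 and 28, of which only 20 and 18 were the same genes, and 1122 of 1675 matched genes above and 1123 of 1670 below kept their side in both cultures, while 212 and 154 changed to the other. With S phase scaled to the asynchronous SD they were 25 and 34, with bins of RNA level 78 and 72, without the 20% of genes with the lowest RNA 29 and 28, at 2-fold 3 and 14, and at 1 SD of each culture 228 and 284. The filters changed the number of genes. Among 381 protein-coding genes that overlap no annotated gene, 114 were above and 118 below, 4 and 6 of them past 1.5-fold. Among 2653 that overlap no protein-coding gene the counts were 899, 901, 23 and 26, and among 4367 without repeated windows of 25 bases 27 and 35 passed 1.5-fold. These last 2 filters were added after seeing the data.

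The glycolysis medians were 0.10 and 0.30 with the GC trend removed, and the S-phase median was 1.17 over the 3 genes that overlap no annotated gene. The cell wall medians were 0.53 and 0 at the 1 gene left by that filter, and 0.57 in S phase with bins of RNA level. The S-phase median of non-coding RNA genes was 0.0013 without the genes of lowest RNA, which leaves 40 of 132. Among list medians of at least 1.1-fold, removal of the GC trend turned the sign of fermentation in the asynchronous culture (−0.13). It also turned elongation factors (−0.12 and −0.087), and in S phase flocculin-like genes (−0.014) and methionine and sulfate assimilation (−0.018). Smaller medians turned too, among them those of pseudogenes (−0.18 and −0.16) and, in the asynchronous culture, of non-coding RNA genes (0.02). Among genes past 1.5-fold in both cultures, it turned the pseudogene SPBC31A8.02 (−0.19 and −0.30) and SPCC63.13 in S phase (−0.16). Named genes under this threshold turned too, such as pdc101 (−0.17 and −0.01) and eft201 (−0.08 and −0.02). The cause was not tested, and removal of the trend can also take out Upf1 signal that goes with Pol II. Of all list medians under the alternatives, 786 moved by less than the spread between arrays and 21 by more. Another 7, of at least 1.1-fold, changed sign or fell to 0. This spread (0.24) is the SD over genes of the difference between cultures, over the square root of 2. It is a spread of single genes and exceeds many list medians, so a median can lose or reverse its shift within it. The 786 therefore do not show that a list kept its shift. Of the values of named genes, 5273 moved by less, 388 by more, and 3 values of genes past 1.5-fold changed sign.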
